A study of Homo sapiens with 6 samples.

Results

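Fibronectin and 8 other genes of secreted matrix glycoproteins were examined in HBECs, a human bronchial epithelial line that has been immortalized, after exposure to an allergen with or without an agonist of the aryl hydrocarbon receptor (AhR). The 9 genes, *FN1*, *TNC*, *THBS1*, *THBS2*, *SPARC*, *TGFBI*, *FBN1*, *VCAN* and *POSTN*, were taken by name from a table of 61228 gene names. They were chosen with the difference between the groups known, so their levels and fold changes between the groups are given as a description, without a p-value. Of the 9, 6 passed the filter on low counts and were among the 15373 genes tested, and *FBN1*, *VCAN* and *POSTN* did not pass it.

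Poly(A) RNA was sequenced from 6 libraries of wild-type HBECs grown in medium with fetal bovine serum. In 3 libraries the cells had received cockroach extract (CRE) for 24 h. In the other 3 they had also received VAF347, a small molecule that activates AhR, given before CRE (CRE + VAF347). The series design also names cells given VAF347 alone, but the 6 libraries include none of these and no untreated cells. Each value therefore compares CRE + VAF347 with CRE. The labels do not say whether replicates came from separate cultures, and p-values measure only the spread between these libraries.

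Fibronectin is a large glycoprotein that cells bind through integrins and assemble into fibrils, and other matrix proteins are laid down on that scaffold. Tenascin-C, the thrombospondins, SPARC, periostin and the TGF-beta-induced protein are matricellular proteins, which tune adhesion and growth factor signals more than they bear load. Fibrillin-1 forms microfibrils that hold latent TGF-beta, and versican is a large proteoglycan that binds hyaluronan. In the airway these proteins lie beneath and around the epithelium, where their build-up is part of the remodelling seen in asthma. Serum also contains fibronectin protein, but RNA-seq measures only the cells' own transcripts.

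The libraries held 8873160 to 10750283 counts. The AhR target *CYP1A1*, a monooxygenase gene, served as a check of the treatment: it had 6, 8 and 5 counts with CRE and 454, 412 and 460 with CRE + VAF347. CRE replicate 3 stood apart from the other CRE libraries, at a mean chi-square of 9.35 and 9.07 per gene against them, where the other pairs of one group had 1.78 to 2.57. It held the highest TMM-normalized counts scaled to depth (CPM) of 5 of the 6 tested members, and values without it are therefore given beside the results. CRE + VAF347 replicate 3 in turn held the lowest CPM of 5 of the 6. Without that library the log2 fold change was -1.0 for *FN1* and -0.929 for *TNC*. Among 14 epithelial markers, 11 exceeded 10 TPM, a unit scaled to depth and transcript length, on average over the 6 libraries. With CRE, *EPCAM* had 544.2 ± 59.87 TPM (SD, n = 3) and *CDH1* 286.2 ± 55.55, and the basal keratin gene *KRT5* stood just below that level at 9.872 ± 0.1266. The basal markers *TP63* and *KRT14* had at most 3 counts in every library. Of 16 fibroblast and mesenchymal markers, 7 exceeded 1 TPM and 3 exceeded 10 TPM on average over the 6 libraries, while 6 had at most 3 counts in every library, and *PDGFRA*, *DCN* and *LUM* were at 0. The 3 highest were *S100A4*, *ACTA2* and *COL1A1*, with means of 43.21, 22.15 and 19.09 TPM with CRE.

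*FN1*, the fibronectin gene, was the member with the most RNA, and its level with CRE + VAF347 was 46.9% of that with CRE. The CRE libraries held 30277, 32961 and 40689 counts of it, against 15433, 15878 and 13739 with CRE + VAF347. The groups did not overlap, and the gap between them was wider than the spread within either. Scaled to library size, the mean was 3383 ± 360.0 CPM (SD, n = 3) with CRE and 1588 ± 193.4 CPM with CRE + VAF347, and the log2 fold change was -1.09 ± 0.098 (standard error). *FN1* alone supplied 0.3088%, 0.3194% and 0.3785% of all counts with CRE and 0.1739%, 0.1677% and 0.1385% with CRE + VAF347. With CRE replicate 3 left out, the log2 fold change was -1.001.

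*TNC*, which encodes tenascin-C, a multimeric protein that weakens adhesion to fibronectin, was lower by nearly the same factor. Its counts were 7692, 7953 and 10032 with CRE and 4149, 3973 and 3730 with CRE + VAF347. The groups did not overlap, and CRE replicate 3 was the highest library. The mean was 836.2 ± 86.43 CPM with CRE and 417.7 ± 46.95 CPM with CRE + VAF347 (n = 3 each). The log2 fold change was -1.002 ± 0.094, or -0.91 without CRE replicate 3.

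*THBS1*, the gene of thrombospondin-1, an activator of latent TGF-beta and an inhibitor of vessel growth, had the second highest counts. It had 12055, 12646 and 16551 counts with CRE and 7877, 7958 and 7619 with CRE + VAF347. All CRE + VAF347 libraries lay below the CRE libraries, of which replicate 3 was again the highest. In CPM they spanned 0.22 on the log2 scale, where CRE replicates 1 and 2 differed by 0.009. The mean fell from 1342 ± 174.4 to 825.3 ± 62.89 CPM, a log2 fold change of -0.70 ± 0.092, and -0.59 without CRE replicate 3.

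*TGFBI* encodes a secreted protein that links collagens and integrins and is induced by TGF-beta in many cells. Its counts were 7297, 6870 and 9731 with CRE and 4800, 4865 and 4804 with CRE + VAF347. The groups did not overlap, and in CPM the CRE + VAF347 libraries spanned 0.17 on the log2 scale, about as much as CRE replicates 1 and 2 (0.164), with CRE replicate 3 above both. The mean was 777.9 ± 119.4 CPM with CRE and 508.8 ± 30.01 CPM with CRE + VAF347, for a log2 fold change of -0.61 ± 0.098. Without CRE replicate 3 it was -0.49, which is under the fold threshold used for a call.

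*SPARC*, which encodes the collagen-binding glycoprotein osteonectin, differed least among the 5 abundant members. It had 4188, 4326 and 4870 counts with CRE and 3332, 3365 and 3705 with CRE + VAF347. After scaling the groups did not overlap, with 423.4 to 454.1 CPM against 352.9 to 373.5 CPM, and the log2 fold change was -0.26 ± 0.059, or -0.23 without CRE replicate 3. This size is under the fold threshold, so the gene was not called.

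The other 4 members were at the edge of detection. *THBS2*, the gene of thrombospondin-2, had 15, 23 and 20 counts with CRE and 11, 11 and 4 with CRE + VAF347, with a log2 fold change of -1.04 and a wide standard error of 0.377, and was not called. Its estimate was -0.67 without CRE + VAF347 replicate 3 and -0.14 with limma on log2(TPM + 1) without a filter. *FBN1*, which encodes fibrillin-1, had 8, 5 and 11 counts with CRE and 4, 11 and 7 with CRE + VAF347, and the groups overlapped. *VCAN*, the versican gene, had 0, 1 and 2 counts with CRE and 3, 0 and 0 with CRE + VAF347. *POSTN*, the periostin gene, had 0 counts in all 6 libraries. A count of 0 allows a level of up to 3 counts, or 0.28 to 0.336 CPM in these libraries, which covers counting error only. No difference of these last 3 genes was detectable at this depth, and no fold change is given for them.

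A gene was called when its p from the quasi-likelihood test of edgeR, adjusted over all genes, was under 0.05 and its log2 fold change exceeded 0.5 in size, a limit taken from the study. By this rule 4 of the 9 members were called lower, *FN1*, *TNC*, *THBS1* and *TGFBI*, and 0 were called higher. Over all genes tested, 1.71% were called lower and 0.501% higher. In 6 members the CPM of the groups did not overlap, with CRE + VAF347 lower, which held for 14.8% of all genes tested. Because the members were chosen from this same comparison, nothing is read from these shares. DESeq2's Wald test called the same 4 members. On the TPM scale limma called 2 members, *FN1* and *TNC*, and without a filter on low values it called 0, with 5 members at an unadjusted p under 0.05.

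**Figure D1:**
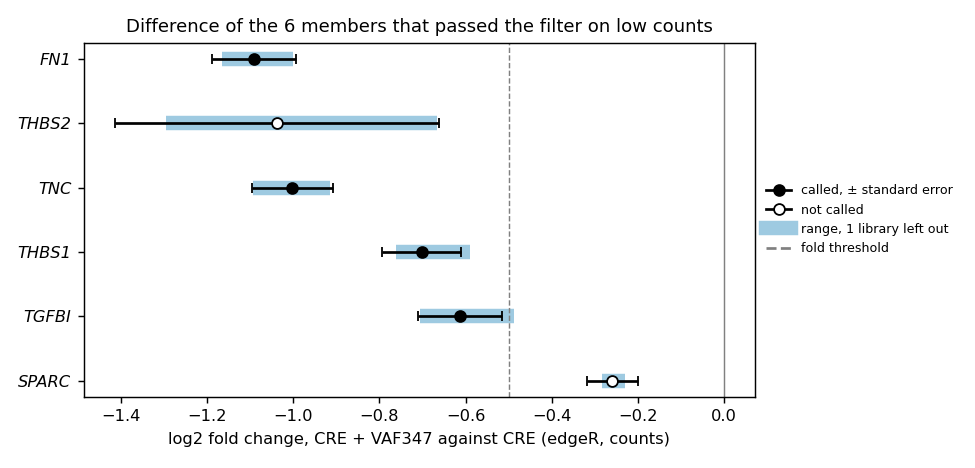
Log2 fold change of CRE + VAF347 against CRE from edgeR on the counts (x axis) for the 6 members tested. Points are estimates with their standard errors, filled where the gene was called, blue bands span the fits that each left out 1 library, and the dashed line marks the fold threshold of 0.5. The estimates run from -1.09 for *FN1* to -0.26 for *SPARC*, and the band of *TGFBI* crosses the threshold, reaching -0.49.

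To compare genes with each other, levels per transcript length (TPM) were used. With CRE, *FN1* stood first at 861.7 ± 117.2 TPM (SD, n = 3), rank 157 among all genes. *TGFBI* (447.3 ± 85.78), *SPARC* (407.5 ± 86.69) and *THBS1* (319.0 ± 61.58) followed, and neighbours among these 3 overlapped between libraries. *TNC* came next at 191.1 ± 28.85 TPM, below every *THBS1* value. *FBN1* (0.5028) and *THBS2* (0.4674) overlapped far below, and *VCAN* (0.02129) overlapped *POSTN* at 0.

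With CRE + VAF347, *FN1* was still the highest member at 409.4 ± 42.9 TPM, now rank 346 among all genes, and its libraries did not overlap those of the next gene. *SPARC* (294.9 ± 35.86) and *TGFBI* (293.9 ± 10.25) could not be separated. *THBS1* (194.3 ± 14.62) lay below them and *TNC* (101.6 ± 12.73) below *THBS1*, each without overlap. On this scale the groups overlapped for *THBS2* and did not for the 5 abundant members.

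**Figure D2:**
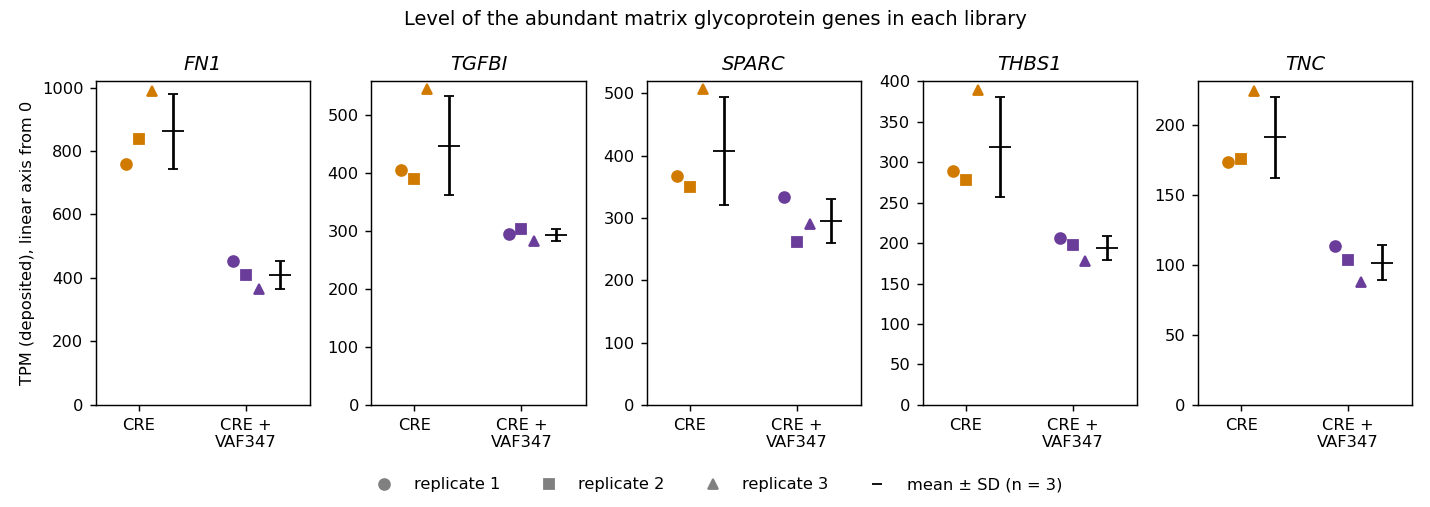
Deposited TPM (y axes, linear from 0) of the 5 abundant members in each library, with replicates shown by symbol and the mean ± SD (n = 3) beside them. Every CRE library lies above every CRE + VAF347 library in the 5 panels, and CRE replicate 3 is the highest library in each, for *FN1* at 989.3 TPM against 451.9 for the highest CRE + VAF347 library.

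In TPM, the excess of *FN1* over the other abundant members was smaller with CRE + VAF347. The TPM ratio of *FN1* to *SPARC* was 2.07, 2.40 and 1.95 with CRE and 1.36, 1.57 and 1.26 with CRE + VAF347. The ratio to *TGFBI* went from 1.94 ± 0.179 to 1.39 ± 0.125, and the ratio to *THBS1* from 2.72 ± 0.249 to 2.10 ± 0.072 (SD, n = 3). The ratio to *TNC* moved least, from 4.52 ± 0.222 to 4.04 ± 0.102. It also depends on the transcript lengths behind TPM. On counts the log2 fold changes of *FN1* (-1.091 ± 0.098) and *TNC* (-1.002 ± 0.094) were close. These ratios compare genes within a library and do not depend on how libraries were scaled to each other. Together the 5 abundant members supplied 0.627%, 0.628% and 0.762% of all counts with CRE and 0.401%, 0.381% and 0.339% with CRE + VAF347. In cultures measured in bulk, fewer cells that make these transcripts and less RNA per cell cannot be told apart.

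The genes whose pattern over the 6 libraries came nearest to that of *FN1* were sought among 10409 genes with a mean of at least 10 CPM. Likeness was the root mean square difference in log2 CPM after each gene was centred on its own mean. This distance rests mainly on the difference between the groups, from which *FN1* and *TNC* were chosen, so the order largely restates the fold changes and is a description only. *TNC* was nearest, at 0.0628. The next were *STEAP4* (0.0834), a metalloreductase gene, *PTGIS* (0.101), which encodes prostacyclin synthase, *PDZK1* (0.107), a scaffold protein gene, and *FRAS1* (0.108), a basement membrane protein gene. *STEAP4* had 945, 1072 and 1122 counts with CRE and 457, 515 and 409 with CRE + VAF347. *THBS1* ranked 35 (0.205), *TGFBI* 86 (0.262) and *SPARC* 747 (0.437) in the same order. With log2(TPM + 1) in place of log2 CPM, 2 of the 5 nearest genes were shared.

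The ratio of a gene's count to its TPM follows the mean length of the transcripts to which its fragments were assigned. This ratio is computed from the same counts and TPM in which the members were compared, so it is not independent of them. Taken as log2 and centred on the library's median, it was 1.652, 1.609 and 1.721 for *TNC* with CRE and 1.516, 1.502 and 1.583 with CRE + VAF347. The 2 groups of *TNC* did not overlap, and its difference of -0.127 lay outside the 5th to 95th percentile of 2102 genes with at least 1000 counts in every library, -0.105 to 0.086. Its exact two-sided permutation p was 0.1, the smallest that 3 against 3 libraries can give, or 0.5 adjusted over the 5 genes examined. The design therefore cannot reach 0.05 for this measure. Without CRE replicate 3 the difference of *TNC* was -0.097, inside that percentile range.

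*SPARC* had a larger difference of 0.162 in the opposite direction, but its libraries overlapped (exact permutation p = 0.3, adjusted p = 0.5). Without CRE replicate 3 it was 0.09, and without CRE + VAF347 replicate 2 it was 0.105. The differences of *FN1* (-0.056, exact p = 0.7), *THBS1* (-0.028, exact p = 0.3) and *TGFBI* (-0.046, exact p = 0.4) lay within the percentile range, and that of *FN1* ran from -0.105 to -0.007 when CRE replicate 2 or CRE replicate 3 was left out. With an offset for this length in the count model, an alternative chosen after seeing the data, the log2 fold change was -0.87 for *TNC*, -0.42 for *SPARC* and -1.03 for *FN1*. The estimate of *SPARC* thus depended on the scale, from -0.26 on counts to -0.45 on log2(TPM + 1), and passed the call rule on neither.

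**Figure D3:**
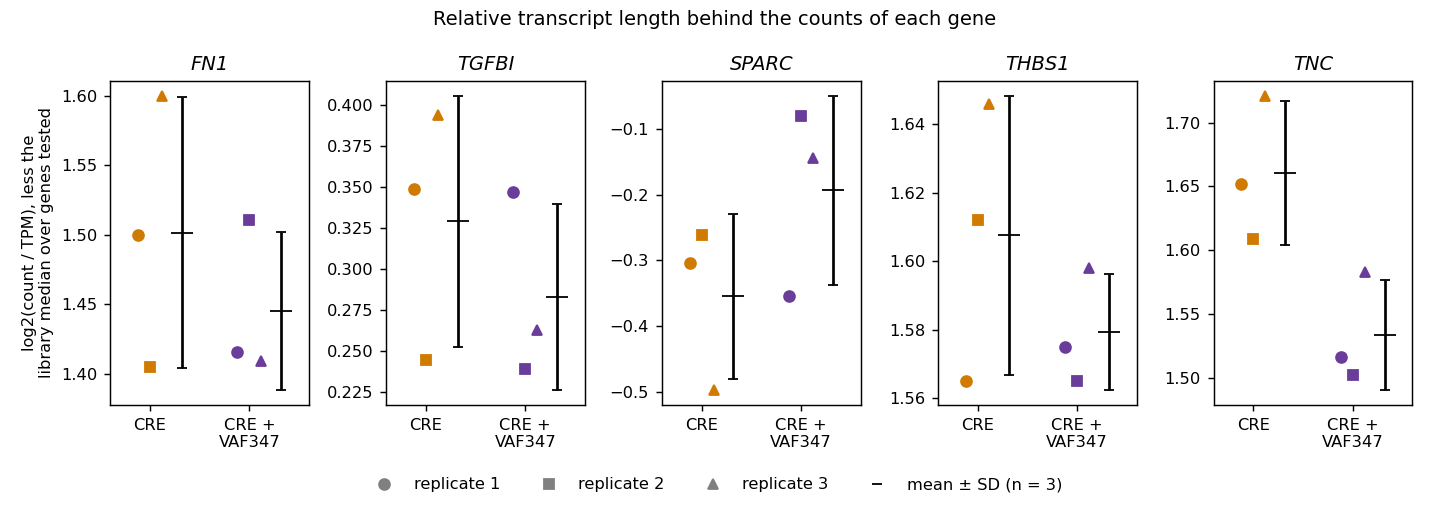
Log2 of count over TPM, less the library's median over all genes tested (y axes, which do not start at 0), for the 5 abundant members in each library, with the mean ± SD (n = 3). A higher value means longer transcripts behind the counts. The CRE + VAF347 libraries lie below the CRE libraries without overlap only for *TNC*, 1.502 to 1.583 against 1.609 to 1.721.

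The 4 called members lie on 4 different chromosomes. On GRCh38, by GENCODE v44, *FN1* (ENSG00000115414.21) spans chr2:215360440-215436073 on the minus strand and overlaps no other gene. *TNC* (ENSG00000041982.17) spans chr9:115019575-115118207 on the minus strand and overlaps *DELEC1* on the opposite strand. *THBS1* (ENSG00000137801.11) spans chr15:39581079-39599466 on the plus strand, where *THBS1-IT1* lies on the same strand and *THBS1-AS1* and *FSIP1* on the other. *TGFBI* (ENSG00000120708.17) spans chr5:136028988-136063818 on the plus strand and overlaps no other gene. *SPARC* (ENSG00000113140.11) spans chr5:151661096-151686975 on the minus strand and overlaps *CLMAT3* on the other. The sources used here do not give a strand setting, and how well fragments from overlapping genes were told apart was not tested.

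The promoters of the 4 called members are shown because these genes were lower together after activation of a transcription factor. They are RefSeq sequences on GRCh38.p14, 5′ to 3′ on the gene's strand, from the 250 bases before the RefSeq start, and they stop where the GENCODE gene begins, which leaves out 5 bases for *FN1* and 50 for *TNC*. Capitals mark matches to the motifs described after them.
FN1 promoter, chr2:215436074-215436318, minus strand: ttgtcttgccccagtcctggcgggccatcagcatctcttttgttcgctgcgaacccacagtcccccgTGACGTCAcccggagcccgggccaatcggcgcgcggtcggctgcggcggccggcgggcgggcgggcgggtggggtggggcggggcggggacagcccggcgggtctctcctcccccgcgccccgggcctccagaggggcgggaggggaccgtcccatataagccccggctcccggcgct
TNC promoter, chr9:115118208-115118407, minus strand: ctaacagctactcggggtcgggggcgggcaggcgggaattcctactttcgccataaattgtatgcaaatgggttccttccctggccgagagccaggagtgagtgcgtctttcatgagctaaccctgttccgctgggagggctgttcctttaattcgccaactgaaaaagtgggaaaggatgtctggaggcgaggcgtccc
THBS1 promoter, chr15:39580829-39581078, plus strand: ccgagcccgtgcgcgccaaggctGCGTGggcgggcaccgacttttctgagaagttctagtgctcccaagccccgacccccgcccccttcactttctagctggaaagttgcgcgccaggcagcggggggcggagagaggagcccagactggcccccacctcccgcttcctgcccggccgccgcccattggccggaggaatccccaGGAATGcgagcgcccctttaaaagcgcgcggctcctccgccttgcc
TGFBI promoter, chr5:136028738-136028987, plus strand: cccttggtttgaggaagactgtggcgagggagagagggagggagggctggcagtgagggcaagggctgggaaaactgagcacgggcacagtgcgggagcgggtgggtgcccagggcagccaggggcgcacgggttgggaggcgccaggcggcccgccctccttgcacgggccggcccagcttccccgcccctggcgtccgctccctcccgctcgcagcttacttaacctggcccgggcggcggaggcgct

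The 5 motifs were searched on both strands in the 250 bases before the start of all 9 members and of all 35116 promoters in the table. They were the AhR core GCGTG (in 32.2% of promoters), the AP-1 motif TGANTCA (6.57%), the cAMP response element TGACGTCA (1.65%), the E-box CACGTG (6.34%) and the TEAD motif GGAATG (11.9%). *FN1* held 1 match, the cAMP response element, at position -183, counted so that -1 is the base just before the start. *THBS1* held an AhR core at position -227 and a TEAD motif at position -46. *TNC* and *TGFBI* held none of the motifs in this window. Of the members not called, *FBN1* held an AhR core at position -88 and a TEAD motif at -58, *SPARC* a TEAD motif at -17, *THBS2* TEAD motifs at -103 and -91, *POSTN* an AP-1 motif at -220, and *VCAN* none. A match is a description of the letters, and binding was not measured.

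The same comparison was then read in 7 lists of related matrix genes, 135 genes in all, of which 83 were tested. These lists were written with earlier results of these libraries known. Of the 83 genes, 9 were called lower and 1 higher, with a median log2 fold change of -0.228, where the median over all genes tested was 0.01. Over all genes tested, 1.71% were called lower and 0.501% higher. In all, 63 of the 83 estimates were below 0 and 20 above, against 7359 below and 8014 above over all 15373 genes. At an adjusted p under 0.05 and any fold change, 23 of the 83 passed, 20 lower and 3 higher.

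**Figure D4:**
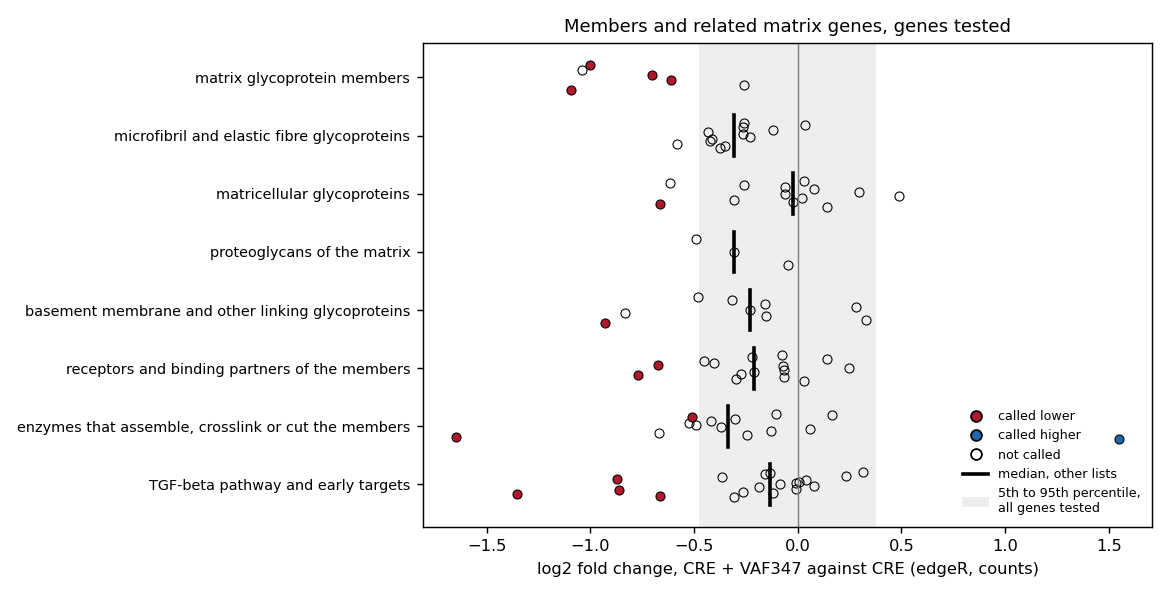
Log2 fold change of CRE + VAF347 against CRE from edgeR (x axis) for the tested genes of the members and of the 7 related lists (rows). Each point is a gene, red where called lower, blue where called higher and open where not called, black bars are the medians of the related lists, and the grey band is the 5th to 95th percentile of all genes tested, -0.471 to 0.374. Calls lie in 5 of the 7 lists, and *ADAMTS15*, at 1.55, is the single gene called higher.

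Genes of TGF-beta signalling, a known inducer of fibronectin, were all detected. Of 19 listed and tested, 4 were called lower and 0 higher (median -0.135). In this list 14 estimates were below 0 and 5 above. *INHBA*, which encodes the activin A subunit, had 29.75, 30.64 and 29.47 CPM with CRE and 13.23, 13.84 and 8.261 CPM with CRE + VAF347, for a log2 fold change of -1.35 ± 0.149 (adjusted p = 0.000539, edgeR). *TGFB2*, the gene of the ligand TGF-beta 2, fell from 31.81 ± 1.529 to 17.4 ± 2.085 CPM, and its log2 fold change was -0.87 with a standard error of 0.1 (edgeR adjusted p = 0.000649). All 3 CRE + VAF347 libraries of both genes lay below all CRE libraries.

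*CCN2*, the gene of connective tissue growth factor, was called at -0.66 ± 0.119 (edgeR adjusted p = 0.00857) and in 11 of 16 alternatives. It lost the call without CRE + VAF347 replicate 3 (edgeR adjusted p = 0.0526) and with an offset for transcript length (edgeR adjusted p = 0.0505). The limma fits did not call it either. The feedback inhibitor *SMAD7* (0.005 ± 0.095, edgeR adjusted p = 0.985) and *TGFB1*, the gene of the main TGF-beta ligand (0.038 ± 0.095, edgeR adjusted p = 0.858), both named after their values were seen, did not pass. *TGIF1*, the gene of a repressor of SMAD-driven transcription, also named after its values were seen, was higher by less than the fold threshold (0.31 ± 0.072, edgeR adjusted p = 0.03). Named in the same way, *BHLHE40* (-0.308 ± 0.088), *PMEPA1* (-0.262 ± 0.072) and *SKIL* (-0.186 ± 0.09) had estimates below 0. They did not pass either (edgeR adjusted p = 0.0694, 0.0602 and 0.268). *TGFB2* and *INHBA* are shown in the study's own plots of these libraries, so their direction is not independent evidence.

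Among receptors and binding partners, 2 of 15 tested genes were called lower and 0 higher (median -0.21). At an edgeR adjusted p under 0.05 and any fold change, 6 passed, 6 lower and 0 higher. Those under the fold threshold, named after their values were seen, were *ITGB8* (-0.405), *LRP1* (-0.454), *CD47* (-0.297) and *SDC1* (-0.219). Their edgeR adjusted p-values were 0.0051, 0.0096, 0.0403 and 0.0471. *ITGB6* encodes the beta 6 integrin chain, an epithelial partner of the alpha V chain that binds fibronectin and tenascin-C. It had 147.0, 139.3 and 154.8 CPM with CRE and 98.76, 95.02 and 82.9 CPM with CRE + VAF347, for a log2 fold change of -0.67 ± 0.075 (adjusted p = 0.000586, edgeR). *ITGA4*, the alpha 4 chain gene, was called at -0.77 ± 0.196 (edgeR adjusted p = 0.0446), but from 26 to 61 counts a library, and it lost the call when any 1 of the 6 libraries was left out (adjusted p 0.0581 to 0.174). The chains of the main fibronectin receptor, named for that role after their values were seen, did not pass: *ITGA5* had -0.27 ± 0.104 (edgeR adjusted p = 0.161) and *ITGB1* -0.065 ± 0.057 (edgeR adjusted p = 0.559).

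Of 14 tested enzymes that assemble, crosslink or cut matrix proteins, 2 were called lower and 1 higher (median -0.336). Most estimates, 11, were below 0, and 3 were above. At an edgeR adjusted p under 0.05 and any fold change, 4 were lower and 1 higher. These included *MMP14* (-0.42, edgeR adjusted p = 0.00208) and *LOXL2* (-0.372, edgeR adjusted p = 0.0114), both under the fold threshold and named after their values were seen. Both of the genes with the largest fold changes encode secreted metalloproteinases of the ADAMTS family, which cut proteoglycans such as versican. *ADAMTS9* had 59, 74 and 70 counts with CRE and 19, 22 and 19 with CRE + VAF347, for a log2 fold change of -1.65 ± 0.189 (edgeR adjusted p = 0.000639). *ADAMTS15* moved the other way, from 41, 50 and 45 to 128, 120 and 123 counts, by 1.55 ± 0.140 (edgeR adjusted p = 0.000143). In neither gene did the groups overlap. Both are also shown in the study's plots of these libraries.

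*PLAT*, which encodes the protease tissue plasminogen activator, was called at -0.51 ± 0.064 (edgeR adjusted p = 0.00112). It lay at the fold threshold and was called in 8 of 16 alternatives. It was not called without CRE replicate 2 (-0.48), CRE + VAF347 replicate 2 (-0.498) or CRE + VAF347 replicate 3 (-0.49). The GC offset (-0.474), the transcript length offset (-0.42, edgeR adjusted p = 0.0571) and the limma fits did not call it either.

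Calls in the structural lists stand beside 1.71% of all genes tested called lower and 0.501% called higher. With lists this short, 0 or 1 call is not read as a result. Of 9 basement membrane and other linking glycoproteins tested, 1 was called lower, *FRAS1*, at 36.56 ± 2.535 CPM with CRE and 19.28 ± 2.523 CPM with CRE + VAF347 (log2 fold change -0.93 ± 0.104, edgeR adjusted p = 0.000616). Of 13 other matricellular genes tested, 1 was called, *CCN2* again, with a median of -0.023 and 6 of 13 estimates above 0. *EDIL3*, an integrin ligand gene named after its values were seen, was higher (0.488 ± 0.099, edgeR adjusted p = 0.0168) but under the fold threshold. The count was 2 without CRE replicate 1 or CRE replicate 3, and 0 without CRE + VAF347 replicate 3. Of 12 genes of microfibrils and elastic fibres, 0 were called by edgeR, by DESeq2 or by limma (median -0.307), with 6 at an unadjusted p under 0.05 in edgeR. *FBLN1* (-0.42, adjusted p = 0.00378) and *EFEMP1* (-0.37, adjusted p = 0.00528), fibulin genes named after their values were seen, passed edgeR's adjusted p but not the fold threshold.

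Proteoglycan genes were mostly too low to test. Of 16 listed, 3 were tested and 0 were called by edgeR, DESeq2 or limma, with 1 at an unadjusted p under 0.05 in edgeR. That gene was *HSPG2*, which encodes perlecan, named after its values were seen: it had 375.5 CPM with CRE and 267.6 CPM with CRE + VAF347 (-0.49 ± 0.072, edgeR adjusted p = 0.00292), just under the fold threshold. The number of proteoglycan genes called was 1 when CRE replicate 1, CRE replicate 2, CRE + VAF347 replicate 2 or CRE + VAF347 replicate 3 was left out.

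Some markers of other cell types were called lower: 2 of 9 tested fibroblast and mesenchymal markers and 2 of 4 tested endothelial and blood markers. Over all genes tested the share was 1.71%. *VIM*, the vimentin gene of mesenchymal cells, had 6.204 ± 0.6283 TPM with CRE and 2.489 ± 0.8526 TPM with CRE + VAF347. It was called lower (log2 fold change -1.32) from 19 to 92 counts a library, and *TAGLN* was also called lower (-0.58). The other 7 tested markers of the 16 were not called, including *COL1A1*, at 19.09 ± 1.093 and 16.26 ± 1.77 TPM, the smooth muscle actin gene *ACTA2* (log2 fold change -0.004) and the N-cadherin gene *CDH2*, whose estimate was above 0 (0.97, from 0.6131 ± 0.1505 to 1.21 ± 0.4345 TPM). DESeq2 called 1 gene of this list. The summed level of the fibroblast and mesenchymal list was 102.7 to 121.2 TPM with CRE and 83.73 to 103.8 TPM with CRE + VAF347, with *PDGFRA*, *DCN* and *LUM* at 0.

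The epithelial list summed to 4294 to 5069 TPM with CRE and 4286 to 4463 TPM with CRE + VAF347, and 0 of its 12 tested genes were called by edgeR or DESeq2, with 5 at an unadjusted p under 0.05 in edgeR. Markers of ciliated, club and goblet cells summed to 101.8 to 128.5 and 91.57 to 96.21 TPM, 6 of 10 having at most 3 counts in every library, and 0 of 4 tested were called by edgeR or DESeq2, with 3 at an unadjusted p under 0.05. Endothelial and blood markers summed to 31.96 to 35.45 and 20.37 to 27.28 TPM, with 5 of 10 at or under 3 counts. The endothelial genes *VWF* (-1.45) and *CDH5* (-0.84) were called lower by edgeR, while DESeq2 called 1 gene of that list. *VWF* had only 10 to 39 counts a library. The part of these markers in the differences of the matrix genes was not tested.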

How the data were processed

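RNA-seq of 6 HBEC libraries, 3 per group, was analysed, with groups taken from the sample labels. The authors estimated the deposited expected counts and TPM per gene name with Salmon from paired-end reads, on hg38 per the labels' processing notes. The Salmon version, annotation and strand setting are not given in the sources used here. The deposited table of the authors' own DESeq2 comparison (fold changes, p-values, mean normalized counts) was not used.

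Counts were rounded (14.5% of values were not whole) and analysed with edgeR 4.0.16 in R 4.3.3, using filterByExpr, TMM normalization, the quasi-likelihood test and Benjamini-Hochberg adjustment over 15373 genes. A standard error is the log2 fold change divided by the square root of F. CPM values are TMM-normalized. Alternatives used DESeq2 1.42.0, limma 3.58.1 on log2(TPM + 1) or log2(TPM + 0.1), other filters and libraries left out. On simulated data for CRE + VAF347 against CRE, edgeR recovered 198 of 200 changed genes over 15142 genes. All 61228 gene names matched GENCODE v44, the source of positions. Promoters are from RefSeq, and all 9 members matched.

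Members and lists were chosen with earlier results of these data known. Genes named are the 9 members, up to 4 called genes per direction of each list, the 5 genes most like *FN1*, the AhR target *CYP1A1* and the markers. A gene that meets this rule is not reported here. Any other gene is said in the text to have been named with its values known. Libraries held 8873160 to 10750283 counts. Replicates differed by more than sampling noise, and each library was counted as a replicate. That spread does not show whether they came from separate cultures.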

Additional observations from a re-analysis of the deposited data

How the results depend on the processing

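*FN1*, *TNC*, *THBS1*, *TGFBI* and *SPARC* were lower with CRE + VAF347 in all 16 alternatives that gave them a value, and *THBS2* in 13 (-1.30 to -0.14, called in 0). *FN1* ranged from -1.17 to -1.0 on the log2 scale and was called in 15, *TNC* from -1.09 to -0.87 (15), *THBS1* from -0.76 to -0.59 (13) and *TGFBI* from -0.71 to -0.49 (12). The number of members called was 4, and 2 with limma on log2(TPM + 1) or log2(TPM + 0.1) with a mean TPM of at least 1. It was 0 with limma without a filter, with 5 at an unadjusted p under 0.05. The number of other matrix genes called was 10, and 3 in both filtered limma fits, 0 without a filter (28 at an unadjusted p under 0.05) and 23 at an adjusted p under 0.05 with any fold change. When each library was left out, 3 to 4 members and 8 to 12 other matrix genes were called, the 3 without CRE replicate 3. Over all genes, edgeR called 263 lower and 77 higher, DESeq2 179 and 57, limma 50 and 34, or 12 and 20 without a filter, and the edgeR fit with a transcript length offset 161 and 64. Leaving out each library gave 201 to 380 calls in all, the fewest without CRE + VAF347 replicate 3. Why these counts differ was not tested. The GC offset and the transcript length offset were chosen after seeing the data, and the same 4 members were called with each.

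The replicate numbers are shared by the groups, but the labels do not say that they pair the cultures. Correlations of deviations between libraries with the same number were 0.1, 0.128 and 0.0499, against -0.0819 to -0.0162 for other pairs. Every library thus correlated best with its own number, a hint from the data and not the design. With the replicate block, 319 genes were called in place of 340, and 4 members and 9 other matrix genes. *ITGA4* lost its call in that fit (log2 fold change -0.77, adjusted p = 0.069, edgeR), and no other named matrix gene did.

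With 3 libraries a group, an exact permutation p cannot go below 0.1. At 8873160 to 10750283 counts a library, *FBN1*, *VCAN* and *POSTN* were too low to compare.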
